A study of Mus musculus with 8 samples.

Results

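Immature thymocyte genes are genes that developing T cells use while they assemble and test their antigen receptor in the thymus. The set held 9 mouse genes, Rag1, Rag2, Dntt, Ptcra, Cd4, Cd8a, Cd8b1, Cd3e and Themis, which were chosen by their FPKM in 1 heart library, WT-TAC1. Of these 9 genes, 8 had values among the 25929 genes of the expression table, and Rag2 was not analysed here. Every gene of the table had a value above 0 in at least 2 libraries. Because WT-TAC1 chose the genes, every value that uses this library is a description with no test, and the tests below use the other 7 libraries.

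The hearts came from wild-type C57BL/6 mice (WT) and from littermates that carried the fat-1 transgene, an n-3 fatty acid desaturase of Caenorhabditis elegans that converts n-6 into n-3 polyunsaturated fatty acids. The promoter that drives the transgene is not given in the sources used here. At 3 months of age the mice underwent transverse aortic constriction (TAC), a suture around the aorta that overloads the left ventricle for 8 weeks, or a sham operation that opened the chest without constriction. The sham groups (WT-Sham and Fat1-Sham) and the constricted groups (WT-TAC and Fat1-TAC) held 2 libraries each, named here by group and replicate number, and their labels describe ventricular tissue whereas the methods name whole hearts. Levels are in FPKM, fragments scaled to transcript length and to the depth of the library. These values are whole numbers of fragments at a single length per gene, which gave totals of 14163994 to 21218331 fragments per library. A detection floor of 3 fragments was set by choice for all libraries. Since a group had 2 libraries, no exact permutation test between groups could pass a threshold of 0.05, and p-values come from limma, which shares the spread over all genes.

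WT-TAC1 stood apart from the other 7 libraries before any listed gene was considered. It had the highest median FPKM, 2.61, against 1.58 in WT-TAC2 and 0.823 to 1.16 in the other 6 libraries. Cardiomyocyte genes identified all 8 libraries as heart, and the 10 listed ones summed to 32160 FPKM in WT-TAC1, 58550 in WT-TAC2 and 63590 to 75700 in the others. The most abundant was Myh6, the alpha cardiac myosin heavy chain, at 7406 FPKM in WT-TAC1 and at least 12110 in each other library. Of the airway epithelial genes, 5 of 6 were highest in WT-TAC1 or WT-TAC2 with both above the other 6 libraries. Scgb1a1, a club cell secretory protein, reached 1555 FPKM in WT-TAC2, compared with 707 in WT-TAC1, and Fat1-Sham1 held 33.1 and the other 5 libraries at most 0.450. Sftpc, a surfactant protein of the alveoli, went another way, with 74.7 FPKM in WT-TAC1, 29.9 in Fat1-Sham1 and 0.139 in WT-TAC2, and at most 0.127 in the other 5 libraries.

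A T cell precursor cuts and joins gene segments to build its receptor. RAG1 and RAG2 make the cuts, and terminal transferase, the product of Dntt, adds bases at the joins. The product of Ptcra pairs with a finished beta chain as the pre-T cell receptor, after which the cell carries both CD4 and CD8, called the double-positive stage, until signals through the receptor, in which THEMIS takes part, decide its fate. Mature T cells outside the thymus keep Cd3e and either Cd4 or the Cd8 genes, but no longer use Rag1, Dntt or Ptcra. Adult ventricular muscle is not a known site of this process.

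The windows before the starts of Rag1, Dntt and Ptcra are shown because these genes set immature apart from mature T cells and because a searched motif lay in each of them. The sequences are the 250 bases before the RefSeq start on GRCm38.p6, read 5′ to 3′ on the strand of the gene, with motif letters in capitals. The windows are chr2:101649533-101649782 on the minus strand for Rag1, chr19:41029025-41029274 on the plus strand for Dntt and chr17:46763713-46763962 on the minus strand for Ptcra.
Rag1: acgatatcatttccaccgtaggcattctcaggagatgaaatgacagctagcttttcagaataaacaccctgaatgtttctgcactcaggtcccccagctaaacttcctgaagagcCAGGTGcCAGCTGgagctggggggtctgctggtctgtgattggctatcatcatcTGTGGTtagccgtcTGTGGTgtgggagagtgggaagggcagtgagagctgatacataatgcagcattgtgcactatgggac
Dntt: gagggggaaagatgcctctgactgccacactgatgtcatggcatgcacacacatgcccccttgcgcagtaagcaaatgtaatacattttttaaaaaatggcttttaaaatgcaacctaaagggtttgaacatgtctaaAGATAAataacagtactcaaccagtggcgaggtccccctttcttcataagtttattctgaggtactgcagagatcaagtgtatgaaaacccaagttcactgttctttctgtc
Ptcra: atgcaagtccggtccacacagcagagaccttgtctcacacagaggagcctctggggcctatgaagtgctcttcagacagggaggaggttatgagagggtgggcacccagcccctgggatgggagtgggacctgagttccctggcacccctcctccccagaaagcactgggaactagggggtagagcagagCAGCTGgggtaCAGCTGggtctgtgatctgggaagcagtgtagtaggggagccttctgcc
The letters searched on both strands were the E boxes CAGCTG and CACCTG, the Runx motif TGTGGT, the GATA motif AGATAA, the TCF/LEF motif CTTTGA and the Ets motif CCGGAA. The Rag1 window held 1 CACCTG on its other strand, starting 135 bases before the start, 1 CAGCTG at 128 bases and TGTGGT at 81 and 67 bases. The Ptcra window held CAGCTG at 60 and 49 bases before the start, and the Dntt window held AGATAA at 112 bases. Of all 32851 windows of that length in the table, 13.0% held CAGCTG, 17.2% CACCTG, 14% TGTGGT, 9.99% AGATAA, 13.8% CTTTGA and 12.0% CCGGAA. The windows of Rag2, Cd8a, Cd3e and Themis held none of these letters, and Cd4 and Cd8b1 were not matched in the table. A match describes letters and not binding.

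Each of the 8 measured genes was higher in WT-TAC1 than in any other library. Together they took 81000 fragments of that library, 0.409% of its total, and 223 fragments over the other 7 libraries, so that 99.73% of all their fragments lay in WT-TAC1. Over all 25929 genes, 51.7% were highest in WT-TAC1, 2.80% were more than 10-fold above the highest other library and 0.324% more than 100-fold, and all 8 genes were among the latter. That count follows from how the genes were picked.

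**Figure D1:**
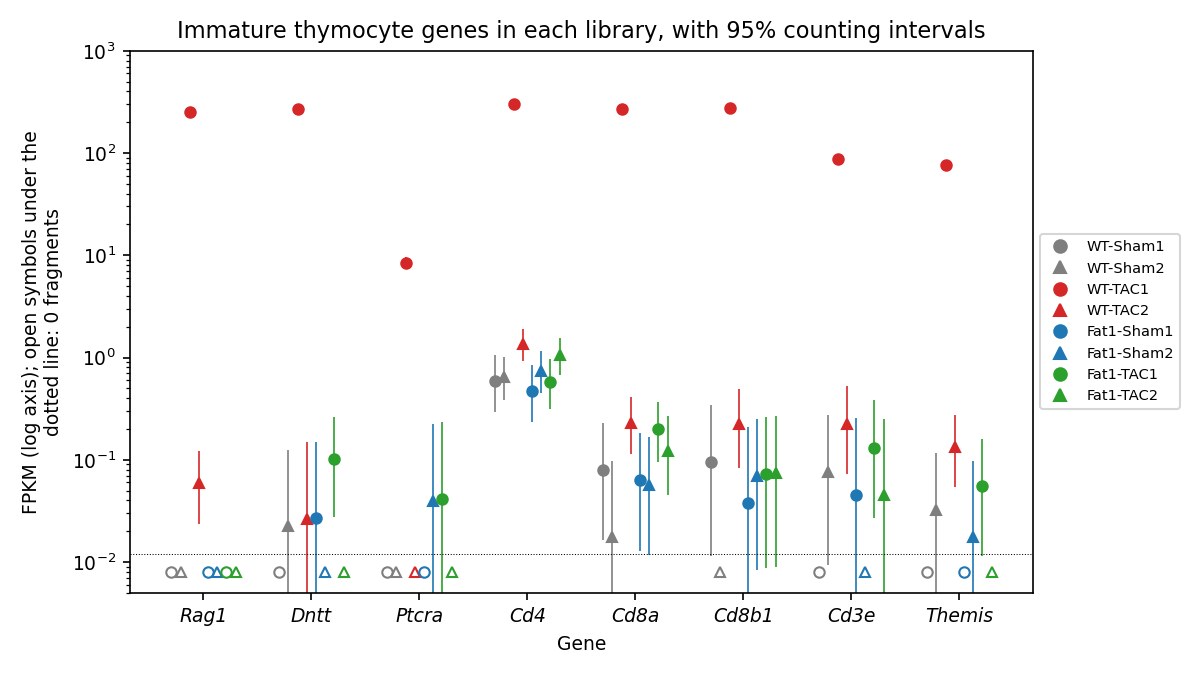
FPKM (log axis) of the 8 measured genes in each of the 8 libraries, 1 symbol per library (colour for group, circle for replicate 1 and triangle for replicate 2), with bars for the 95% counting interval and open symbols under the dotted line for libraries with 0 fragments. The WT-TAC1 symbols lie between 8.45 and 302 FPKM, and all other symbols at or below 1.36 FPKM.

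The receptor-assembly genes were close to or at 0 outside WT-TAC1. Rag1 (ENSMUSG00000061311, chr2:101638282-101649501, minus strand) was at 252 FPKM in WT-TAC1 from 33000 fragments, at 0.0590 FPKM in WT-TAC2 from 7 fragments, and at 0 in all 4 sham libraries and both Fat1-TAC libraries. WT-TAC1 was 4270-fold above WT-TAC2 (95% counting interval 2072 to 10620), rank 1 of all genes by this ratio. B230118H07Rik, a gene annotated across the same stretch on the same strand, did not follow it, with 36.8 FPKM in WT-TAC1 and 46.1 to 53.7 in the other 7 libraries. In the 6 libraries with 0 fragments of Rag1, the floor of 3 fragments corresponds to 0.0214 to 0.0321 FPKM, and the upper 95% counting limit to 0.0263 to 0.0394 FPKM. All intervals and floors cover counting error only.

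Dntt (ENSMUSG00000025014, chr19:41029275-41059525, plus strand) was at 267 FPKM in WT-TAC1 from 11109 fragments. In the other libraries it had 4 fragments in Fat1-TAC1 (0.102 FPKM), 1 each in WT-Sham2, WT-TAC2 and Fat1-Sham1 (0.0225, 0.0265 and 0.0268 FPKM), and 0 in WT-Sham1, Fat1-Sham2 and Fat1-TAC2. WT-TAC1 was 2617-fold above Fat1-TAC1 (interval 1022 to 9606). Unlike Rag1, Dntt was thus not higher in WT-TAC2 than in the remaining libraries at this depth.

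Ptcra (ENSMUSG00000036858, chr17:46755663-46763712, minus strand) was the lowest of the 8 genes in WT-TAC1, at 8.45 FPKM from 215 fragments. It had 1 fragment each in Fat1-Sham2 (0.0399 FPKM) and Fat1-TAC1 (0.0417 FPKM), and 0 in the other 5 libraries, WT-TAC2 included. The ratio of WT-TAC1 to Fat1-TAC1 was 203, with an interval of 36.0 to 8038 that reflects the single fragment. Per length, Dntt was 31.6-fold above Ptcra in WT-TAC1.

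The coreceptor genes were between 267 and 302 FPKM in WT-TAC1. Cd4 (ENSMUSG00000023274, chr6:124864692-124888221, minus strand), the coreceptor for class II MHC, was at 302 FPKM there from 7858 fragments. It was also the 1 gene of the set above the floor in all 7 other libraries, at 0.591 and 0.646 FPKM in WT-Sham1 and WT-Sham2, 1.36 in WT-TAC2, 0.471 and 0.740 in Fat1-Sham1 and Fat1-Sham2, and 0.571 and 1.05 in Fat1-TAC1 and Fat1-TAC2. WT-TAC2 was thus the highest of the 7, the sham and Fat1-TAC ranges overlapped, and the fold from WT-TAC2 to WT-TAC1 was 222 (interval 157 to 325).

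Cd8a (ENSMUSG00000053977, chr6:71373427-71379173, plus strand) and Cd8b1 (ENSMUSG00000053044, chr6:71322788-71337494, plus strand) encode the chains of the class I MHC coreceptor. Cd8a was at 267 FPKM in WT-TAC1 from 14184 fragments. The other libraries gave 0.0789 and 0.0176 FPKM in WT-Sham1 and WT-Sham2, 0.228 in WT-TAC2, 0.0629 and 0.0572 in Fat1-Sham1 and Fat1-Sham2, and 0.199 and 0.123 in Fat1-TAC1 and Fat1-TAC2. These values came from 6 to 11 fragments in the 3 TAC libraries other than WT-TAC1 and from 1 to 3 in the 4 sham libraries. The share of all genes with TAC above sham in this way was not counted. This order is therefore a description and no result about Cd8a.

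Cd8b1 was at 276 FPKM in WT-TAC1 from 8102 fragments, close to Cd8a per length (ratio of Cd8a to Cd8b1 0.967). Elsewhere it was at 0.0952 and 0 FPKM in WT-Sham1 and WT-Sham2, 0.225 in WT-TAC2, 0.0379 and 0.0690 in Fat1-Sham1 and Fat1-Sham2, and 0.0722 and 0.0743 in Fat1-TAC1 and Fat1-TAC2. Only WT-TAC2 passed the floor, with 6 fragments, and the sham and Fat1-TAC libraries overlapped. The folds of WT-TAC1 over WT-TAC2 were 1168 for Cd8a and 1223 for Cd8b1.

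Cd3e (ENSMUSG00000032093, chr9:44998740-45009627, minus strand), a signalling chain of the T cell receptor complex, was at 87.8 FPKM in WT-TAC1 from 2144 fragments. It was at 0 and 0.0766 FPKM in WT-Sham1 and WT-Sham2, 0.226 in WT-TAC2, 0.0457 and 0 in Fat1-Sham1 and Fat1-Sham2, and 0.130 and 0.0448 in Fat1-TAC1 and Fat1-TAC2. Gm48719, annotated opposite to Cd3e, was at 7.96 FPKM in WT-TAC1 and at most 0.154 elsewhere, and counting by strand is not given in the sources used here, so fragments of the overlapping stretch cannot be told apart. WT-TAC2 alone was above the floor among the 7, with 5 fragments.

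Themis (ENSMUSG00000049109, chr10:28668360-28883818, plus strand), which tunes receptor signals during thymic selection, was at 76.0 FPKM in WT-TAC1 from 4388 fragments. It was at 0 and 0.0324 FPKM in WT-Sham1 and WT-Sham2, 0.134 in WT-TAC2, 0 and 0.0176 in Fat1-Sham1 and Fat1-Sham2, and 0.0551 and 0 in Fat1-TAC1 and Fat1-TAC2. Its 7 fragments in WT-TAC2 were the most outside WT-TAC1, and the fold between these libraries was 568 (interval 275 to 1413), against 388 for Cd3e (interval 166 to 1197).

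Within WT-TAC1 the order by FPKM was Cd4, Cd8b1, Dntt, Cd8a, Rag1, Cd3e, Themis and Ptcra. The counting intervals of Cd8b1 and Dntt overlapped, as did those of Dntt and Cd8a, and all other neighbours were apart. The largest steps were from Themis to Ptcra, 8.99-fold, and from Rag1 to Cd3e, 2.87-fold, while Cd4 was 1.10-fold above Cd8b1, and the steps from Cd8b1 through Dntt and Cd8a to Rag1 were each smaller than that. The spread of these levels between hearts cannot be told from 1 library.

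The group of WT-TAC hearts did not share these levels. Rag1 had a mean of 126 FPKM ± 178 (SD, n = 2) in WT-TAC, and Cd4 a mean of 152 ± 213 (SD, n = 2), since 1 library carried nearly all of it. For the 8 genes, the WT-TAC mean minus the WT-Sham mean on the log2(FPKM + 1) scale ran from 1.62 for Ptcra to 4.14 for Cd8b1, and Fat1-TAC minus WT-TAC from -1.59 to -4.10, both with no test. With WT-TAC2 as the WT-TAC library, WT-TAC2 minus WT-Sham was 0 for Ptcra, 0.083 for Rag1 and 0.54 for Cd4 on that scale.

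**Figure D2:**
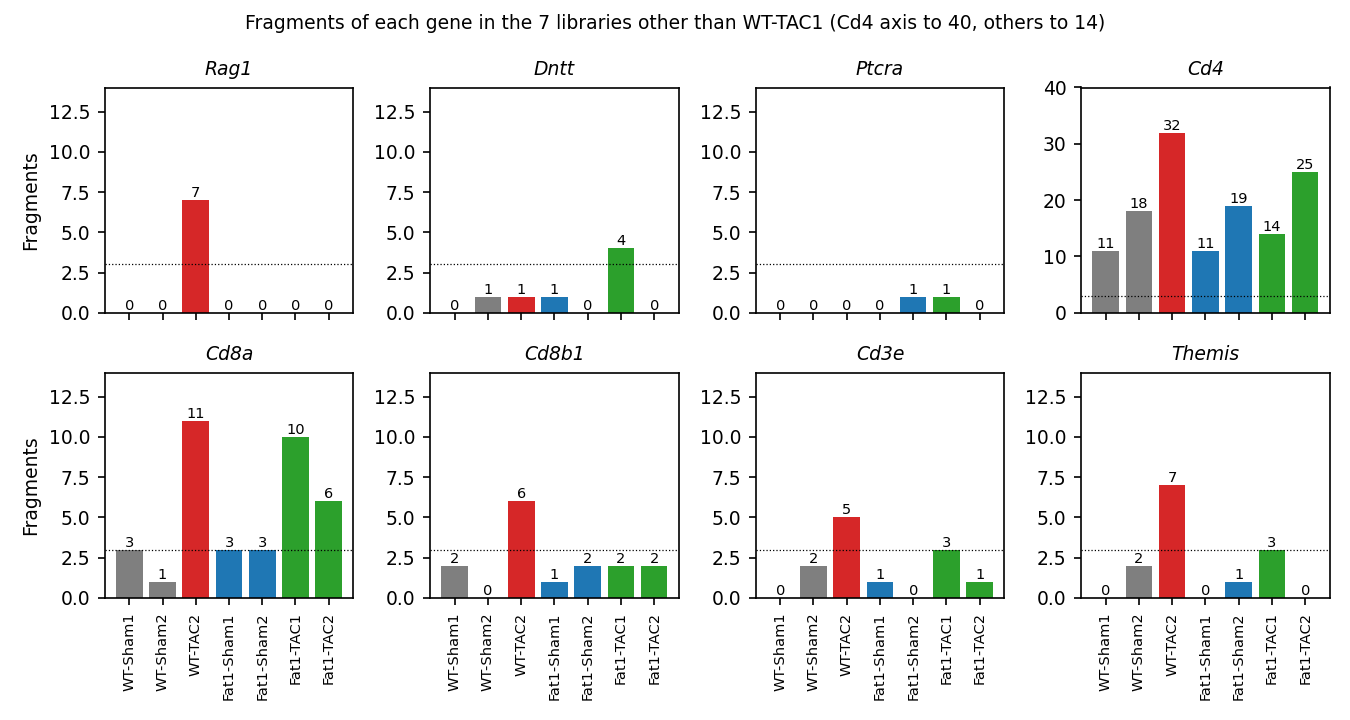
Fragments of each of the 8 genes (bars, with the number above) in the 7 libraries other than WT-TAC1, coloured by group, with the detection floor of 3 fragments dotted and the Cd4 axis running further than the others. WT-TAC2 has the most fragments for 6 of the genes, from 5 of Cd3e to 32 of Cd4, and Dntt and Ptcra do not follow this order.

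In the 7 other libraries, the genes apart from Cd4 were at or under the floor in 41 of 49 values. WT-TAC2 was above the floor for 5 of these 7 genes, Rag1, Cd8a, Cd8b1, Cd3e and Themis. FPM here stands for fragments scaled to 1000000 per library. Summed without Cd4, the set gave 2.06 FPM in WT-TAC2 (95% counting interval 1.45 to 2.84), 1.23 in Fat1-TAC1 (0.780 to 1.85) and 0.496 in Fat1-TAC2 (0.227 to 0.942). The sham libraries gave 0.353 and 0.283 in WT-Sham1 and WT-Sham2 and 0.337 and 0.358 in Fat1-Sham1 and Fat1-Sham2. The counting intervals of the sham libraries reached up to 0.824 in WT-Sham1, 0.616 in WT-Sham2, 0.735 in Fat1-Sham1 and 0.738 in Fat1-Sham2. The interval of Fat1-TAC2 overlapped those of all 4 sham libraries, and that of Fat1-TAC1 overlapped that of WT-Sham1. The values of these 3 TAC libraries were above those of the sham libraries. How many of all genes share this order was not counted, so it is a description and no result about the set. WT-TAC1 was at 3689 FPM.

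The share of each gene within the set is given by library as a description, since WT-TAC1 chose the genes and each share comes from 1 library. Rag1, Dntt and Ptcra took 60.6% of the fragments without Cd4 in WT-TAC1 (44324 of 73142, exact 95% interval 60.2 to 61.0%), and 21.6% in WT-TAC2 (8 of 37, 9.83 to 38.2%). Over the other 7 libraries together the share was 17.2% (16 of 93, 10.2 to 26.4%). These intervals cover counting error within a library and not the spread between hearts. Gene by gene, the WT-TAC2 fragments were 0.0212% of those in WT-TAC1 for Rag1, 0.00900% for Dntt and 0 for Ptcra, against 0.0741% for Cd8b1, 0.0776% for Cd8a, 0.160% for Themis, 0.233% for Cd3e and 0.407% for Cd4. A smaller number of T cells and less RNA per cell cannot be told apart in such bulk libraries.

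**Figure D3:**
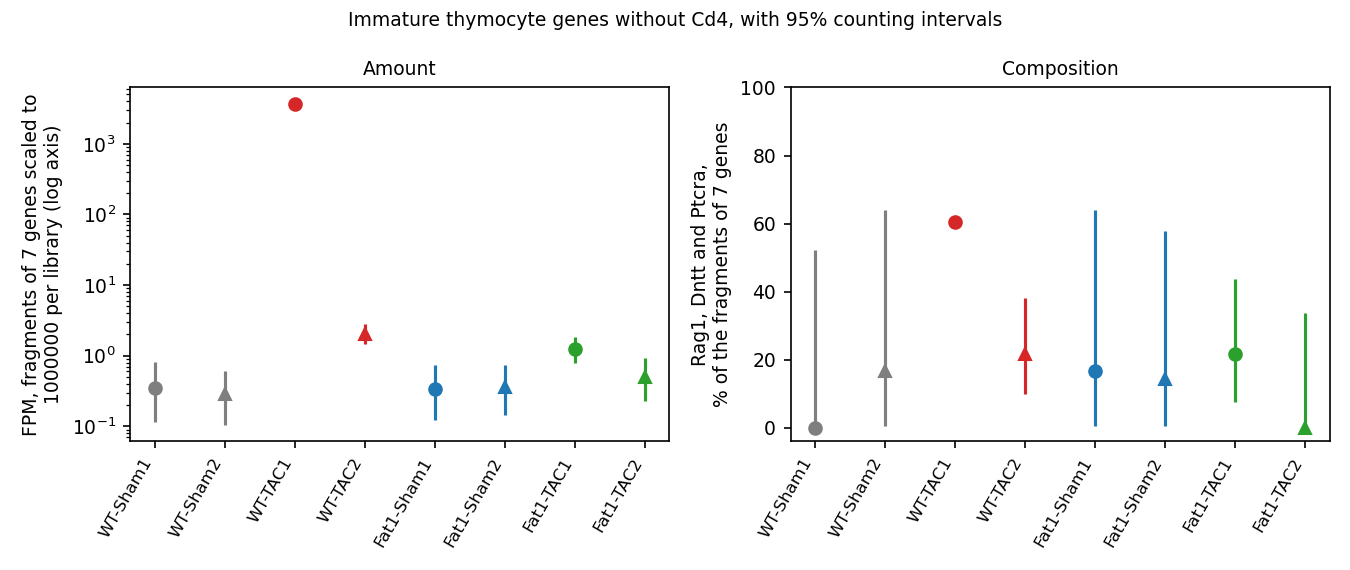
Left, FPM (log axis) summed over the 7 measured genes without Cd4 in each library, and right, the percent of those fragments from Rag1, Dntt and Ptcra, with bars for 95% counting intervals. WT-TAC1 lies at 3689 FPM and 60.6%, and WT-TAC2 at 2.06 FPM and 21.6%.

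The tests of surgery and genotype used the 7 libraries without WT-TAC1, in which WT-TAC2 stood alone for its group and was assumed to vary like the other groups. The fit covered the 13883 genes that reached 1 FPKM in 2 or more of these libraries. Cd4 was the 1 gene of the set among them. Cd4 reached 1 FPKM only in WT-TAC2 (1.36) and Fat1-TAC2 (1.05), both TAC libraries, so its own high values let it in. The tests of Cd4 therefore cannot decide about TAC. Calls needed a fold change of 1.5 in either direction together with a p below 0.1 after Benjamini-Hochberg adjustment. No call was made for Cd4 in any of the 5 comparisons. Its differences below were all short of a 1.5-fold change on the log2(FPKM + 1) scale, so none could be made.

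For WT-TAC2 against WT-Sham, the question of pressure overload in wild-type hearts, Cd4 differed by 0.54 ± 0.29 (SE) on the log2(FPKM + 1) scale, with a limma adjusted p of 0.378. Of all genes tested, 0.144% were called in this comparison, 19 up and 1 down. For Fat1-TAC against Fat1-Sham, overload in transgenic hearts, the Cd4 difference was 0.17 ± 0.24 with a limma adjusted p of 0.834, and 0.0144% of genes were called. The median log2 difference of all genes tested was 0.20 in the former comparison and 0.023 in the latter.

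The genotype comparisons gave no call for Cd4 either. Fat1-Sham minus WT-Sham was -0.017 ± 0.24 (limma adjusted p = 1), where 0.00% of genes were called. Fat1-TAC minus WT-TAC2 was -0.39 ± 0.29 (limma adjusted p = 0.481), where 0.180% were called. The interaction of genotype and surgery was -0.38 ± 0.38 (limma adjusted p = 0.714), where 0.0864% were called. WT-TAC2 enters 3 of these 5 comparisons, so they share its error.

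Without the filter on low values all 8 genes entered the fit. Their log2(FPKM + 1) differences ran from -0.39 to 0.54 over all comparisons, short of a 1.5-fold change on that scale. No call was thus possible whatever the p-value, and the lack of calls decides nothing about these genes. The percentages of called genes below need the adjusted p and the fold change, so they are no background for counts by unadjusted p. The share of all genes with an unadjusted p under 0.05 was not counted. The counts of the set under 0.05 are therefore a description and no result about it. For WT-TAC2 against WT-Sham, where 1.96% of the 25929 genes were called, 5 of the 8 had an unadjusted p under 0.05, with limma adjusted p-values of 0.135 for Rag1, 0.180 for Cd8a, 0.193 for Cd8b1, 0.196 for Themis and 0.226 for Cd3e. Their log2(FPKM + 1) differences were 0.083 for Rag1, 0.23 for Cd8a, 0.23 for Cd8b1, 0.16 for Themis and 0.24 for Cd3e, which a pseudocount of 1 compresses at such levels. For Fat1-TAC against WT-TAC2, where 2.12% were called, 3 had an unadjusted p under 0.05 and the smallest limma adjusted p was 0.132. In the same fit 1 gene had an unadjusted p under 0.05 for Fat1-TAC against Fat1-Sham (smallest limma adjusted p 0.505, 0.0193% of genes called), 1 for the interaction (0.285, 1.33% called) and 0 for Fat1-Sham against WT-Sham (0.910, 0.00% called).

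**Figure D4:**
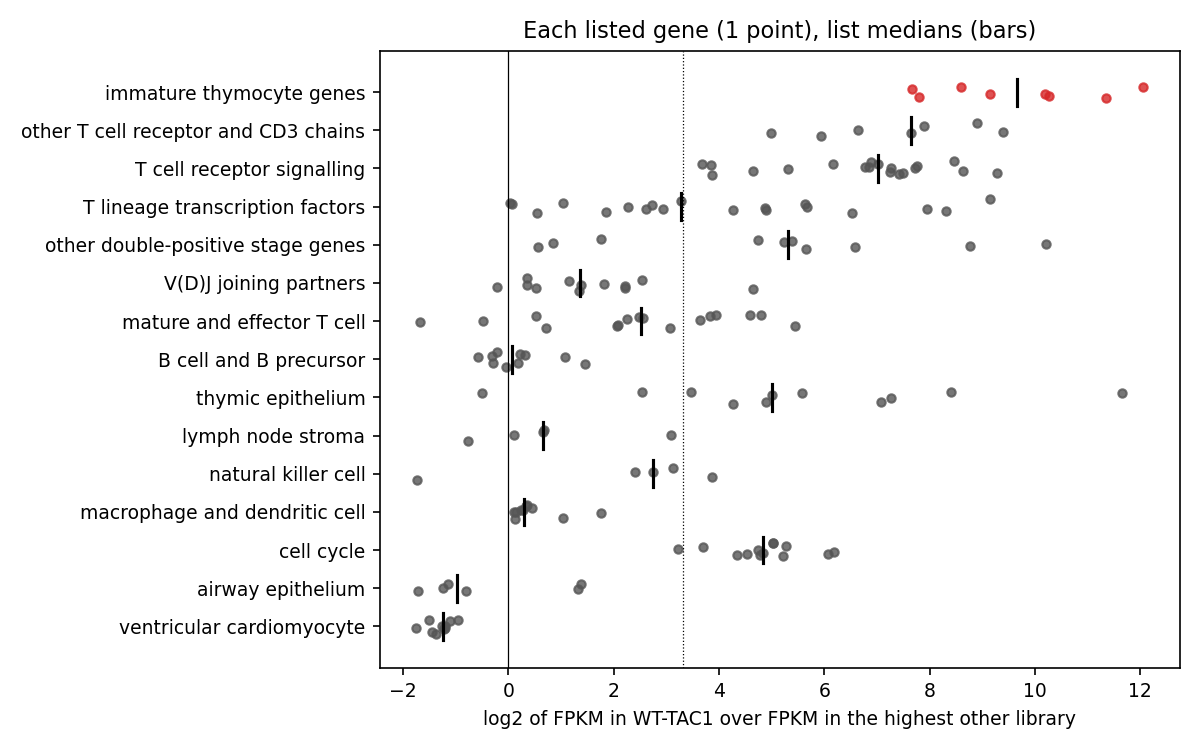
Each point is 1 gene with a value above 0 in WT-TAC1, placed by the log2 of its FPKM in WT-TAC1 over its highest FPKM in any other library, in rows by gene list, with bars for list medians, a line at 0 and a dotted line at 10-fold. The immature thymocyte genes (red) and the other receptor, CD3 and signalling genes all lie right of the dotted line, and cardiomyocyte genes left of 0.

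Other genes of the T cell receptor pathway were also highest in WT-TAC1. Over all genes the median ratio of WT-TAC1 to the highest other library was 1.04. The 7 other receptor and CD3 chains were all more than 10-fold higher in WT-TAC1 than in any other library, with a median of 200-fold. Trbc2 and Trbc1, the constant regions of the beta chain, were at 814 and 637 FPKM in WT-TAC1 and at most 1.21 and 1.34 elsewhere. Cd3d, a further CD3 chain, was at 182 FPKM against at most 0.910.

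All 19 receptor signalling genes were likewise more than 10-fold higher, with a median of 130-fold. Lck, the kinase bound to CD4 and CD8, was at 453 FPKM in WT-TAC1 and at most 0.731 elsewhere, and Lat, the adaptor downstream of it, at 315 against at most 0.790. Cd27, a costimulatory receptor, was at 162 against at most 1.05. In the 7-library fit 1 of the 7 chains and 3 of the 19 signalling genes were tested, and none of them was called in any comparison.

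The transcription factors and stage genes were more mixed. All 19 T lineage factors were highest in WT-TAC1, but 9 of them by more than 10-fold, and the median was 9.73-fold. Tcf7, which starts the T cell programme, was at 540 FPKM against at most 0.951 elsewhere, Satb1, a chromatin organiser, at 287 against at most 9.83, and Ets1 at 280 against 31.0 to 36.4. Of the 10 other genes of the double-positive stage, 7 were more than 10-fold higher, with Ly6d, a lymphoid surface protein, at 124 FPKM against at most 2.47. Plxnd1, a semaphorin receptor, was at 167 FPKM in WT-TAC1 and at 70.6 to 113 in the others.

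Cd24a, a surface protein of immature lymphocytes and of epithelium, was at 110 FPKM in WT-TAC1, 32.7 in WT-TAC2 and 2.65 to 7.58 in the other 6 libraries. It was called lower in Fat1-TAC than in WT-TAC2 (log2 difference -2.68 ± 0.32, limma adjusted p = 0.0609). The call was lost without Fat1-TAC replicate 1, without Fat1-TAC replicate 2, with the replicate number as a block and with a pseudocount of 0.1, and its adjusted p ran from 0.0108 to 0.381 over all settings. None of the tested T lineage factors was called in any comparison.

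The partners of RAG1 in joining DNA ends moved less than Rag1 itself. Of 12 such genes 11 were highest in WT-TAC1, by a median of 2.58-fold over the highest other library, and 1 by more than 10-fold. That gene was Hmgb2, which assists RAG binding and is also abundant in dividing cells, at 246 FPKM against at most 9.76. Hmgb1 was at 262 against at most 74.5, and Xrcc6, which holds broken ends, at 166 against at most 35.8. None was called in the 7-library comparisons, in which all 12 were tested.

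Mature and effector T cell genes were lower than the set in WT-TAC1. Of 17 measured genes 14 were highest there and 6 by more than 10-fold, with a median of 5.62-fold. Ccl5, a chemokine of effector cells, was at 26.4 FPKM against at most 1.86. Klf2, which controls exit from the thymus and is also active in endothelium, was at 27.5 FPKM in WT-TAC1, within the range of the sham libraries. Klf2 was called higher in Fat1-TAC (87.3 and 72.2 FPKM) than in Fat1-Sham (28.3 and 25.1 FPKM), by 1.54 ± 0.13 on the log2 scale with a limma adjusted p of 0.0665. Its adjusted p ran from 0.0170 to 1 over the settings, of which 7 lost the call, among them fits without Fat1-Sham replicate 1, without Fat1-Sham replicate 2 and without Fat1-TAC replicate 2.

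Rag1 and Dntt are also active in B cell precursors, so B lineage genes were set beside them. Of 10 measured B cell genes, 5 were highest in WT-TAC1, 0 by more than 10-fold, and the median was 1.06-fold. Ebf1, a B lineage factor also found in other cells, was at 9.0 FPKM in WT-TAC1 against 11.0 in WT-TAC2, Cd79b, a B cell receptor chain, at 6.80 and 3.22, and Blk, a kinase, at 5.24 and 6.08. The summed B cell list was at 37.1 FPKM in WT-TAC1, 36.3 in WT-TAC2 and 11.3 to 25.5 in the other 6 libraries. None was called in the 7-library comparisons, in which 8 were tested. For WT-TAC2 against WT-Sham these 8 had a median log2 difference of 1.34, compared with 0.20 over all genes tested, 0.34 over the 13 T lineage factors tested and 0.18 over the 12 joining partners.

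Markers of other cells of the thymus moved with the set. Of 11 measured thymic epithelial genes 10 were highest in WT-TAC1, 9 by more than 10-fold, and their sum was 627 FPKM in WT-TAC1, 21.1 in WT-TAC2 and 11.0 to 15.3 in the others. Prss16, a protease of thymic cortical epithelium, was at 228 FPKM in WT-TAC1 and at most 0.0708 elsewhere, a ratio of 3212. Ccl25, the ligand of the thymocyte chemokine receptor CCR9, was at 142 against at most 4.39, and Tbata at 136 against at most 1.0. The epithelial genes Foxn1 and Psmb11 were not analysed here. Of this list 2 genes were tested in the 7-library fit and none was called. The part of these cells in the levels of the set was not tested.

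Cell cycle genes moved with the set as well. All 13 were highest in WT-TAC1, 12 of them by more than 10-fold, and the list summed to 655 FPKM there, 16.3 in WT-TAC2 and 8.88 to 18.9 in the others. Top2a, a topoisomerase of dividing cells, was at 214 FPKM against at most 2.95, Rrm2 at 85.0 against at most 2.61 and Mki67 at 69.3 against at most 1.86. None was called in the 7-library comparisons, in which 7 were tested.

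Other immune lists did not stand out by 10-fold as a whole. Macrophage and dendritic genes were all highest in WT-TAC1, by a median of 1.24-fold and none by 10-fold, with Lyz2 at 343 FPKM against 139 to 271, C1qa at 109 against at most 91.3 and C1qb at 95.2 against at most 69.7. Of 5 natural killer genes 4 were highest in WT-TAC1, 1 by more than 10-fold, and the median was 6.69-fold. Klrd1 was at 5.79 FPKM in WT-TAC1 against at most 0.664, Klrk1 at 3.74 against at most 0.256 and Klrb1c at 1.22 against at most 0.231. Of 5 measured lymph node stroma genes 4 were highest there, with Cxcl13 at 10.6 FPKM and 9.73 in WT-TAC2, Chst4 at 2.86 and 3.27, and Fcer2a at 1.99 and 1.22. None of these genes was called in the 7-library comparisons.

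Airway and cardiomyocyte genes had other orders of libraries than the set. Of the 6 airway genes 2 were highest in WT-TAC1 and 0 by more than 10-fold, and the list summed to 1489 FPKM there, 3751 in WT-TAC2 and 0.150 to 76.7 in the other 6 libraries. Bpifa1, an airway secretory protein, was at 1968 FPKM in WT-TAC2 against 600 in WT-TAC1, and Scgb3a2, a club cell protein, at 219 against 92.9, whereas Rag1 was 4270-fold higher in WT-TAC1 than in WT-TAC2. Bpifa1 and Scgb3a2 were called higher in WT-TAC2 than in WT-Sham, by 10.64 ± 1.15 and 7.78 ± 0.67 on the log2 scale (limma adjusted p = 0.0492 and 0.0199), and lower in Fat1-TAC than in WT-TAC2, by -10.90 ± 1.15 and -7.78 ± 0.67 (limma adjusted p = 0.0328 and 0.0167). Both entered these fits through WT-TAC2 and Fat1-Sham1, the only libraries of the 7 where they reached 1 FPKM. A pseudocount of 0.1 lost the calls of both genes in both comparisons. With limma-voom only the call of Scgb3a2 in Fat1-TAC against WT-TAC2 remained. Both other scalings lost Bpifa1 in WT-TAC2 against WT-Sham. Leaving out WT-Sham replicate 1 or Fat1-TAC replicate 1 lost calls of both genes, and leaving out Fat1-TAC replicate 2 lost those of Bpifa1. The 10 cardiomyocyte genes were all lower in WT-TAC1 than in the highest other library, with a median ratio of 0.425. Myl2, a ventricular myosin light chain, was at 5244 FPKM in WT-TAC1 and at least 9328 elsewhere, and Mb, myoglobin, at 4593 and at least 7829, and none of the 10 was called in the 7-library comparisons.

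The genes most like the set were taken from 11637 genes that reached 5 FPKM in a library and were not in it. Likeness was Pearson's r of log2(FPKM + 1) over the 8 libraries with the mean of the 8 measured genes, which rests on WT-TAC1 alone standing apart, and 358 genes had r above 0.99. The 10 with the highest r, from 0.99985 to 0.99993, were Trbv2, Izumo1r, Ccr4, Gm39323, Pglyrp2, Myh1, Camk4, Gm37266, Ccr9 and Sla2. Trbv2, a variable segment of the receptor beta locus, was at 37.5 FPKM in WT-TAC1 and at most 0.0994 elsewhere. Ccr9, the chemokine receptor of thymocytes, was at 76.9 against at most 0.176, and Ccr4, a chemokine receptor of T cells, at 12.0 against at most 0.0738. Myh1, a skeletal muscle myosin heavy chain and the 1 muscle gene among the 10, was at 8.39 FPKM in WT-TAC1 and at most 0.0716 elsewhere.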

How the data were processed

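RNA-sequencing libraries of 8 mouse hearts were analysed. The authors quality-filtered the reads, mapped them to the reference transcriptome and deposited 1 FPKM value per gene and library; per the labels the build is mm10 (GRCm38), and the submitters' processing notes name HISAT2, with no version. The table lists 25929 genes by Ensembl ID, of which 25852 matched a symbol, and gene positions are those of GENCODE M21 on the same build. Whole fragments were recovered as the single length per gene at which every value is a whole number within 0.0002 fragments, which held for 100.00% of genes, and between 99.65% and 99.83% of each library's fragments lay on listed genes. FPKM values are normalized for depth, but the precision of a low value follows from these fragments.

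Libraries were grouped by their labels, which describe 2 independent samples per group. limma (version 3.58.1, R 4.3.3) was fitted to log2(FPKM + 1) with trended empirical Bayes moderation (lmFit, eBayes) and 4 group means over the 7 libraries without WT-TAC1. Fold changes are on that scale and understate the change of low genes. The cutoffs, an adjusted p of 0.1 and a fold change of 1.5, are those of the study's methods. Counting intervals are exact Poisson intervals for levels, exact binomial (Clopper-Pearson) intervals for shares and conditional exact intervals for ratios, at 95% (SciPy). The fit and the recovery were tested on simulated data. Alternatives were another scaling, quantile normalization, other filters, a pseudocount of 0.1, fewer or all 8 libraries, the replicate number as a block, limma-voom on the recovered fragments and leaving out each replicate.

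The genes and the 14 lists set beside them (162 genes, 154 with values) were chosen with earlier results of these data known. All members of the set were named. From each list the 3 genes highest in WT-TAC1 and every called gene were named, except for 1 result that is not reported here, together with the 10 genes most like the set. The genes overlapping Rag1 and Cd3e were named after their values were seen. Rag2, Gzmk, Cd40lg, Vpreb2, Igll1, Foxn1, Psmb11, Glycam1 and Madcam1 were not analysed here. Promoter sequences are from RefSeq on GRCm38.p6, in which 7 of the 9 genes were matched.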

Additional observations from a re-analysis of the deposited data

Results flagged for a closer look

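Bpifa1 and Scgb3a2, both airway secretory genes, were called by the interaction test without WT-TAC1. Among the 7 libraries, both reached 1 FPKM only in WT-TAC2 (1968 and 219) and Fat1-Sham1 (10.55 and 2.825). The libraries where they were high thus let them into the fit. Fat1-Sham2 held 0.063 FPKM of Bpifa1 and 0 of Scgb3a2. The call therefore cannot decide on a genotype difference. The log2 difference of Fat1-TAC minus Fat1-Sham less that of WT-TAC2 minus WT-Sham was -12.40 ± 1.49 (SE) for Bpifa1 and -8.75 ± 0.87 for Scgb3a2, with limma adjusted p-values of 0.0861 and 0.0593. WT-TAC2 is the lone WT-TAC library in this test, and 9 of the 12 alternatives lost the call for each gene. Without Fat1-Sham replicate 1 neither gene entered the fit. Groups of 2 libraries were not tested for outlying samples.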

How the results depend on the processing

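All 8 genes stayed highest in WT-TAC1 under both other scalings, with a pseudocount of 0.1 and without WT-TAC replicate 2, and no member that entered a fit was called. All 8 entered without the filter, where their differences were too small for a call, and Cd4 alone in most other settings. No member entered, so no call could be made, at a mean of 5 FPKM, without Fat1-TAC replicate 2 and, in 3 comparisons, with only the groups compared. The counts of all called genes were unstable, and the cause was not tested except that a block uses up degrees of freedom and a filter changes the genes tested. For WT-TAC2 against WT-Sham 20 genes were called, 10 with median-of-ratios scaling, 10 with quantile normalization, 507 without the filter, 6 with a pseudocount of 0.1, 115 with only the groups compared, and 4 to 951 when 1 library was left out (4 without WT-Sham replicate 1, 951 without WT-Sham replicate 2, 93 without Fat1-TAC replicate 1). For Fat1-TAC against Fat1-Sham 2 were called, 1 and 0 under the scalings, 5 without the filter (2 up), 84 with only the groups compared (57 up), 1 with all 8 libraries, and 0 to 59 when 1 library was left out. For Fat1-TAC against WT-TAC2 25 were called, 550 without the filter, 40 at a mean of 5 FPKM, 10 with a pseudocount of 0.1, 508 with only the groups compared, 195 with limma-voom, and 3 to 298 when 1 library was left out. For the interaction 12 were called (2 up), 3 under either scaling (0 up), 344 without the filter, 4 with a pseudocount of 0.1, 3 with limma-voom, and 2 to 17 when 1 library was left out. For Fat1-Sham against WT-Sham 0 were called, and 0 to 4 when 1 library was left out.

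The difference of Cd4 between Fat1-Sham and WT-Sham turned sign, to 0.059 with quantile normalization, 0.0076 without WT-Sham replicate 2 and 0.10 without Fat1-Sham replicate 1, all far from a call. Replicate numbers did not pair the samples (correlations of the replicate differences between groups -0.14 to 0.02). With the replicate block 8 genes were called for WT-TAC2 against WT-Sham, 9 for Fat1-TAC against WT-TAC2 and 2 for the interaction. For the interaction, only the groups compared is the same fit. Outside WT-TAC1 the members had 32 fragments or fewer per gene and library, so their values there carry wide counting error.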
